A study of Mus musculus with 14 samples.

Results

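The core circadian clock genes were followed in mouse liver: Bmal1 (also named Arntl), Clock, Npas2, Nr1d1, Nr1d2, Per1, Per2, Cry1, Dbp and Tef. The members were taken by gene name from a gene table of 57180 genes, and all 10 were found. Of these, 9 passed the filter on low counts, as did 16201 genes in all. Npas2 did not pass and was not tested. Bulk RNA was sequenced from 14 livers of littermate mice fed normal chow, 1 library per numbered mouse: 6 wild type (WT), 4 heterozygous for a Pkd1 change (Het) and 4 homozygous for it (Homo). The word Cre stands in the genotype label of all 14 libraries, WT included. The labels do not name the Pkd1 allele, the promoter or vector that drives Cre, the strain, age or sex, or the hour at which the livers were collected. In bulk tissue, fewer cells of a type and less RNA per cell cannot be told apart.

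The clock is a transcription loop that runs in almost every cell. BMAL1 pairs with CLOCK, or with its relative NPAS2, and the pair binds a short DNA sequence called the E-box to switch on the Per and Cry genes, the nuclear receptor genes Nr1d1 and Nr1d2 (REV-ERB alpha and beta), and Dbp and Tef. PER and CRY proteins then block the BMAL1 and CLOCK pair, while the REV-ERB receptors repress Bmal1, Clock, Npas2 and Cry1 through a sequence called the RORE, and DBP and TEF act on a sequence called the D-box. In the liver of mice on a light-dark cycle, Bmal1, Clock and Npas2 transcripts peak around the end of the night, Nr1d1 and Dbp peak during the day, the Per transcripts follow towards the evening and Cry1 comes late in the night. The level of any of these genes in 1 liver therefore depends strongly on the hour of collection and on the time of feeding.

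The sequences through which the loop acts were read from promoter windows of RefSeq, from 250 bases before to 50 bases after a transcription start site, on build GRCm38.p6. Of the 10 members, 9 matched, with 14 promoters, and Per2 did not match. The motifs searched on both strands were the E-box CACGTG, its variant CACGTT, the RORE core TAGGTCA and the D-box TTATGTAA, and no site can match both E-box forms, which differ in the last base. The E-box was in promoters of 3 of the 9 matched genes (Cry1, Per1 and Tef), and 8.09% of all 27025 genes with a promoter in the table hold it (7.15% of 32851 promoters). The variant was in Cry1 and Nr1d1 and in 5.44% of all genes (4.68% of all promoters). The RORE core was in 1 promoter of Bmal1, the gene the REV-ERB receptors repress, and in 2.61% of all promoters. The D-box was in none of the 14 promoters and in 0.938% of all. A match is a match of letters only. The windows are shown since these genes split into opposite sides in the data below. Each is written 5′ to 3′ on the gene's own strand, with the matched letters in capitals; on the opposite strand CACGTT reads AACGTG, as in Nr1d1 and, in lower case, in Cry1.

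Bmal1, RORE core, chr7:113207531-113207557, plus strand: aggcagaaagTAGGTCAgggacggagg
Nr1d1, E-box variant, chr11:98775378-98775437, minus strand: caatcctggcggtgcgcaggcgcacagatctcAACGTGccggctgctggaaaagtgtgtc
Cry1, E-box, chr10:85185082-85185141, minus strand: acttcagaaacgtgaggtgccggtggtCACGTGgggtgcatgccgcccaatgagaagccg
Per1, E-box, chr11:69098756-69098815, plus strand: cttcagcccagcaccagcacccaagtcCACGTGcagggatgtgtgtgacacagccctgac
Tef, first promoter, E-box, chr15:81802519-81802578, plus strand: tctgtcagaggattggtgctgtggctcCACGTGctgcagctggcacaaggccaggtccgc
Tef, second promoter, E-box, chr15:81811249-81811308, plus strand: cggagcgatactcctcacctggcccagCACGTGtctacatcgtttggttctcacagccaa

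Estimated counts per library summed to 25238140 to 40925973 in WT, 22833853 to 26245475 in Het and 18573739 to 28431875 in Homo. Pkd1, the targeted gene, was at 34.8 ± 2.77 CPM in WT (SD, n = 6), 32.2 ± 3.52 in Het (n = 4) and 25.3 ± 1.51 in Homo (n = 4), where CPM is the count relative to the library's size after TMM scaling (edgeR's trimmed mean of M values). Homo was below WT by 0.46 on the log2 scale in edgeR's quasi-likelihood test with Benjamini-Hochberg adjustment (log2 fold change -0.46, SE 0.08, adjusted p = 0.0246). Which part of Pkd1 is changed is not named in the labels, so these counts check them only in part. All 8 hepatocyte markers (Alb, Apoa1, Ttr and others) were tested and summed to 54400 to 81800 CPM per library, and none was called between genotypes (0 at an unadjusted p under 0.05, and 0 by DESeq2). The 5 lymphocyte markers (Cd3e, Cd79a, Ms4a1, Cd8a and Nkg7) summed to 5.11 to 15 CPM in WT, 16.6 to 19.6 in Het and 17 to 25.1 in Homo, so that WT livers stood below the others. Nearly all of that sum was Cd3e, with means of 11.7, 16.9 and 18.5 CPM, while the other 4 markers had means under 1 CPM in each group and Cd79a, Cd8a and Nkg7 were not lowest in WT. Cd3e was not called between genotypes (edgeR, adjusted p = 0.976 in Homo against WT and 0.998 in Het against WT). Over all genes, CPM ranges did not overlap for 1.15% and 1.2% in the same comparisons. The part of these markers in the genotype comparisons of other genes was not tested.

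None of the 9 tested clock genes differed between genotypes past the threshold, which was an adjusted p under 0.05 over all 16201 genes in edgeR's quasi-likelihood test. The count was 0 in Homo against WT, where 0.222% of all genes were called, 0 in Het against WT (0.0556% of all genes) and 0 in Homo against Het (0.0309%). It was also 0 in the joint test of the 3 genotypes (0.167%). No member had an unadjusted p under 0.05 in any of the 3 pairwise comparisons, and DESeq2 called none. The smallest unadjusted p was 0.0637, for Nr1d1 in Homo against Het (adjusted p = 0.965). CPM ranges overlapped for each of the 9 genes in each comparison, whereas 1.15%, 1.2% and 2.94% of all genes had ranges that did not overlap. With shares this small over all genes, a count of 0 among 9 sits near the background. The median log2 fold change of the 9 genes was -0.04 in Homo against WT, -0.09 in Het against WT and 0.01 in Homo against Het, beside medians over all genes of 0.00 in each.

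Bmal1, the activator without which the loop stops, ran from 0.957 to 4.66 CPM over the 14 livers. In WT its lowest, median and highest values were 1.57, 2.72 and 3.38 CPM. The 4 Het livers had 1.96, 1.96, 4.66 and 4.44 CPM. The 4 Homo livers had 0.957, 2.17, 1.13 and 3.95 CPM. Het livers thus fell into a low and a high pair, 3 of 4 Homo livers were below the WT median, and all groups overlapped. Bmal1 rested on 29 to 139 counts per library, so counting error is part of its spread. The 95% Poisson interval was 0.641 to 1.37 CPM in the lowest liver (Homo 1) and 3.85 to 5.58 CPM in the highest (Het 3), so those livers differed by more than counting error. The order of group means was Het (3.25 ± 1.5, n = 4), WT (2.53 ± 0.737, n = 6) and Homo (2.05 ± 1.37, n = 4), and neighbours in it differed by less than their SDs. The fold was 0.617 in Homo against Het, with a 95% interval of 0.326 to 1.17 (edgeR, adjusted p = 0.976), and 0.792 in Homo against WT (0.44 to 1.42, adjusted p = 0.998).

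Clock, the partner of BMAL1, was held in a narrower range. Its lowest, median and highest values in WT were 31.5, 43.6 and 53.4 CPM. Het livers had 41.1, 50, 44.3 and 52 CPM. Homo livers had 37.2, 41.8, 43.9 and 52.5 CPM. The WT range enclosed every Het and Homo liver. Its fold was 1.01 in Homo against WT (95% interval 0.832 to 1.23) and 1.08 in Het against WT (0.89 to 1.32), so changes beyond those limits lie outside the intervals. Npas2, the alternative partner, had 26 counts in the 14 livers together and at most 6 in 1 liver. Its count was 0 in 3 livers, WT 3, WT 6 and Het 3, and no fold is given for it.

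Nr1d1 was the most variable member. In WT its lowest, median and highest values were 18.1, 22.1 and 74.9 CPM. Het livers had 37.7, 19.9, 14.3 and 19.6 CPM. Homo livers had 44, 110, 34.6 and 12.4 CPM, which include both the highest and the lowest of all 14. WT 1 stood far above the other 5 WT livers, and 3 of 4 Homo livers were above every WT liver but that one. The order of means was Homo (50.3 ± 42, n = 4), WT (31 ± 21.8, n = 6) and Het (22.9 ± 10.2, n = 4), each gap being smaller than the larger SD. The fold was 2.2 in Homo against Het (95% interval 0.95 to 5.1) and 1.63 in Homo against WT (0.772 to 3.42; edgeR, adjusted p = 0.998). Homo against WT rested on Homo 2: the log2 fold change of 0.70 was -0.02 without that liver and 1.18 without WT 1.

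Nr1d2, the second REV-ERB receptor, was among the steadiest. In WT its lowest, median and highest values were 60.5, 66.2 and 80.6 CPM. Het livers had 72.4, 74, 62.3 and 69.5 CPM, and Homo livers had 75.1, 89.6, 74.5 and 58.4 CPM. As with Nr1d1, Homo 2 was the highest and Homo 4 the lowest of the 14. The fold was 1.07 in Homo against WT (95% interval 0.909 to 1.26) and 0.999 in Het against WT (0.849 to 1.18).

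Per1, a repressor subunit that also answers acutely to glucocorticoids and feeding, had a lowest, median and highest WT value of 42.9, 53.5 and 78.4 CPM. Het livers had 20, 61.8, 75 and 63.7 CPM. Homo livers had 40.6, 36.4, 56.1 and 89.7 CPM. Het 1 and Homo 4 were the lowest and the highest of all 14. Per2, the second of the PER repressors, had WT values of 68.5, 82.7 and 97.4 CPM (lowest, median and highest). Its Het livers had 69.2, 71.3, 72.5 and 79.2 CPM, and its Homo livers 70.9, 45.7, 80.8 and 94.9 CPM. The low Per2 liver, Homo 2, was the one with the highest Nr1d1. Mean Per2 was 81.5 ± 10.9 CPM in WT (n = 6) and 73.1 in both other groups, with an SD of 4.33 in Het and 20.7 in Homo. The Per2 fold was 0.896 in Homo and in Het against WT (95% interval 0.713 to 1.13 in both), and the Per1 fold was 0.945 (0.586 to 1.52) and 0.937 (0.581 to 1.51).

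Cry1, the repressor that acts beside the PER proteins, had WT values of 12.1, 16.5 and 22.2 CPM (lowest, median and highest). Het livers had 10.6, 16.2, 14.8 and 14.7 CPM, and Homo livers had 14.6, 8.83, 14.2 and 19.2 CPM. Homo 2 was again at one end of the range, here the low one. The Cry1 fold was 0.853 in Homo against WT (95% interval 0.635 to 1.15) and 0.846 in Het against WT (0.629 to 1.14). The deposited estimates of Cry1 and Nr1d2 were not whole numbers in 13 of 14 libraries, so part of their reads was assigned by estimate.

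Dbp and Tef encode PAR bZIP transcription factors, the outputs through which the clock drives many liver enzymes. Dbp had WT values of 57.3, 80.3 and 121 CPM (lowest, median and highest). Het livers had 112, 73.8, 60.2 and 67.8 CPM, and Homo livers had 99.8, 134, 105 and 55.3 CPM. In each genotype 1 or more livers lay near or above 100 CPM and 1 or more below 70, and 3 of 4 Homo livers were at the high end. Mean Dbp was 84.3 ± 23.2 CPM in WT (n = 6), 78.4 ± 23 in Het (n = 4) and 98.5 ± 32.4 in Homo (n = 4), and the fold was 1.17 in Homo against WT (95% interval 0.817 to 1.67; edgeR, adjusted p = 0.998). Tef had WT values of 84.4, 108 and 133 CPM, while Het livers had 112, 91, 106 and 100 and Homo livers 105, 114, 110 and 97.1 CPM. The WT range again enclosed all other livers, and the Tef fold was 0.975 in Homo against WT (0.825 to 1.15).

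**Figure D1:**
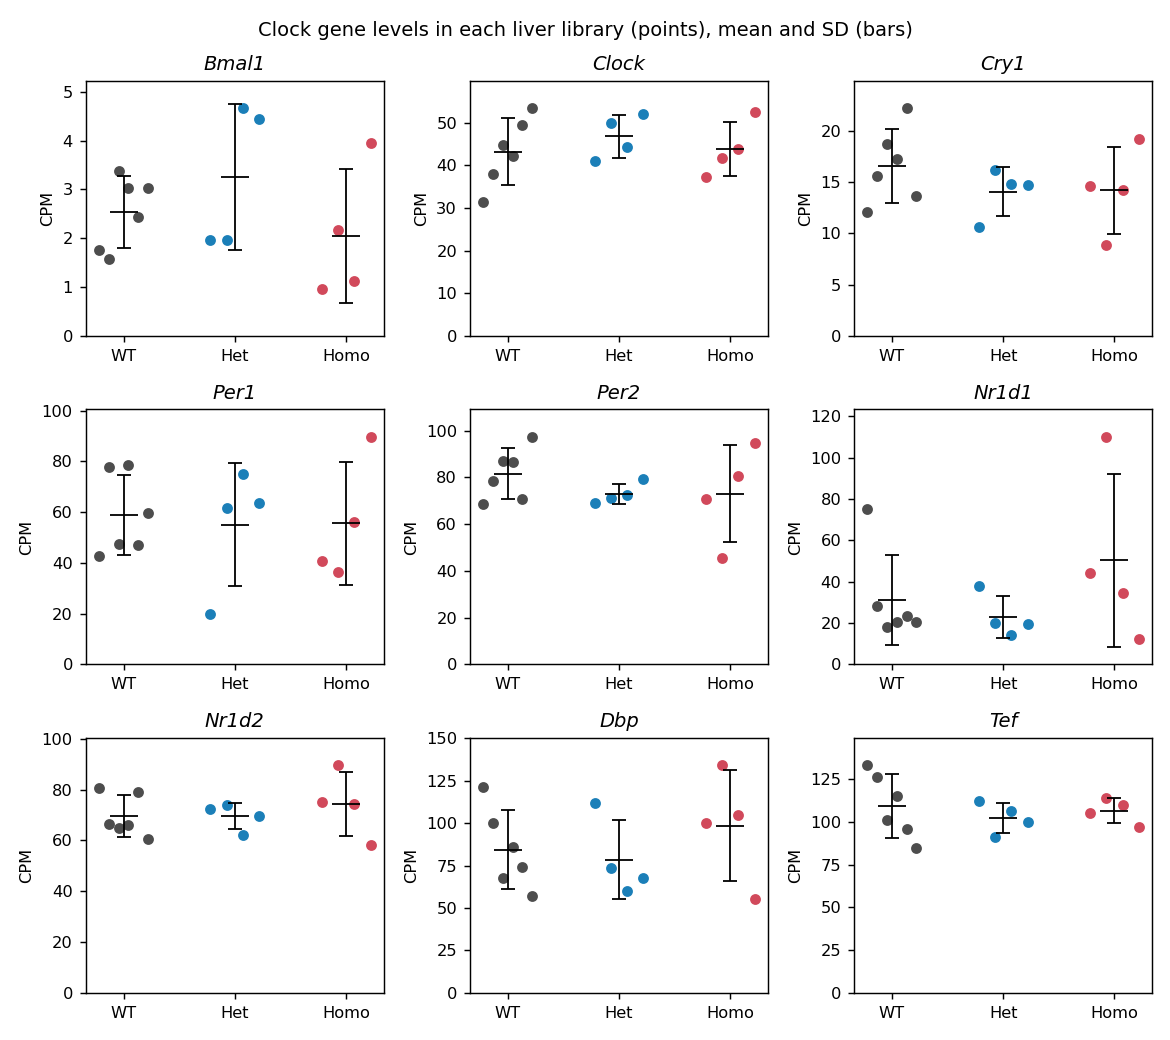
Level of the 9 tested clock genes in CPM (vertical axis, from 0) in each WT, Het and Homo liver, 1 point per liver in replicate order, with the group mean (long bar) and SD (error bars). The groups overlap for each gene, and Homo 2 holds the highest Nr1d1 value, at 110 CPM, and the lowest Per2 value, at 45.7 CPM.

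**Figure D2:**
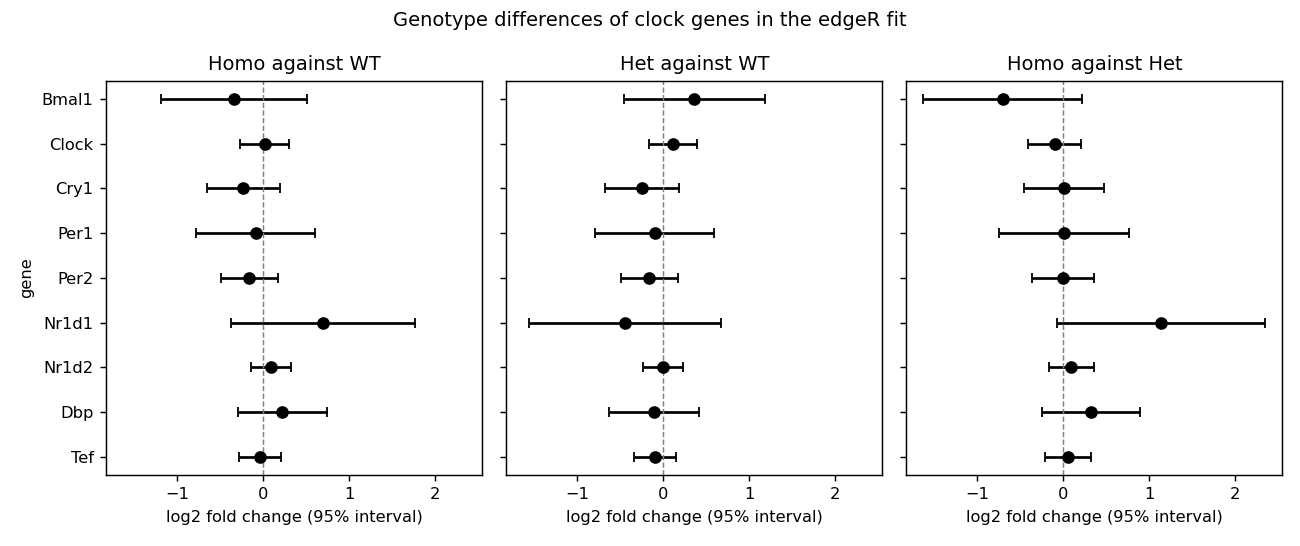
Log2 fold change (horizontal axis) of each tested clock gene in the 3 genotype comparisons, from edgeR's fit over 14 libraries, with 95% intervals as bars and a dashed line at 0. Each interval includes 0, and those of Nr1d1 and Bmal1 are the widest.

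The spread between livers of one genotype was wide for part of the loop. The highest of the 14 livers exceeded the lowest by 8.91-fold for Nr1d1, 4.87-fold for Bmal1, 4.47-fold for Per1, 2.52-fold for Cry1, 2.41-fold for Dbp and 2.13-fold for Per2. For Clock, Tef and Nr1d2 it was 1.7-fold, 1.58-fold and 1.53-fold. The SD of log2 CPM within genotypes, pooled over the 3 groups, was 0.90 for Nr1d1, 0.66 for Bmal1 and 0.61 for Per1. These stood at percentiles 97.5, 95.7 and 94.8 of 13093 genes with at least 1 CPM, whose median SD was 0.20. Dbp (SD 0.44) stood at percentile 88.1, Cry1 (0.35) at 79.7, Per2 (0.27) at 67.9 and Clock (0.23) at 58.9. Nr1d2 (0.18, percentile 45.9) and Tef (0.19, percentile 47.6) were just below the median gene. Nr1d1 was wide in each genotype, with an SD of 0.75 in WT, 0.58 in Het and 1.29 in Homo. In WT and Het a single liver stood above the rest. These were WT 1 at 74.9 CPM, with the next at 28.4, and Het 1 at 37.7 CPM, with the next at 19.9. Part of the Bmal1 spread is counting error, as its counts above show.

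Differences between genes of the same library depend little on its scaling factor. Bmal1 minus Dbp on the log2 CPM scale ran from -6.60 in Homo 1 to -3.67 in Het 3. Its mean was -5.02 ± 0.79 in WT (SD, n = 6), -4.64 ± 1.01 in Het (n = 4) and -5.68 ± 1.30 in Homo (n = 4). Of the Homo livers, 1, 2 and 3 were at -6.60, -5.90 and -6.45, while Homo 4 was at -3.78, next to Het 3 and Het 4 at the opposite end. WT livers 1 and 2 were at -6.03 and -5.92 and the other 4 between -4.90 and -4.21. Livers at both ends were thus found in each genotype, and the ranges overlapped. Bmal1 minus Nr1d1 gave means of -3.42 ± 1.11 in WT, -2.81 ± 1.17 in Het and -4.38 ± 1.86 in Homo. A balance of all 10 genes took the mean of Bmal1, Clock, Npas2 and Cry1 minus the mean of Nr1d1, Nr1d2, Per1, Per2, Dbp and Tef. It gave -4.12 ± 0.29, -3.86 ± 0.37 and -4.21 ± 0.54 in WT, Het and Homo. Npas2, with 0 to 6 counts per library, enters it at values set mostly by the prior count of 2 that is added before the log. Without Npas2 the balance was -2.43 ± 0.49 in WT (n = 6), -2.23 ± 0.33 in Het (n = 4) and -2.73 ± 0.60 in Homo (n = 4), and Homo minus WT was -0.30. Het 4 ranked highest of the 14 with Npas2, and Homo 4 without it. With genotype means removed, Per2 had r = -0.84 with Nr1d1 and Per1 had r = -0.64 with Dbp. Genes in the subtracted mean thus partly offset each other, which limits both forms of the balance as a summary. These are descriptions, with no test.

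**Figure D3:**
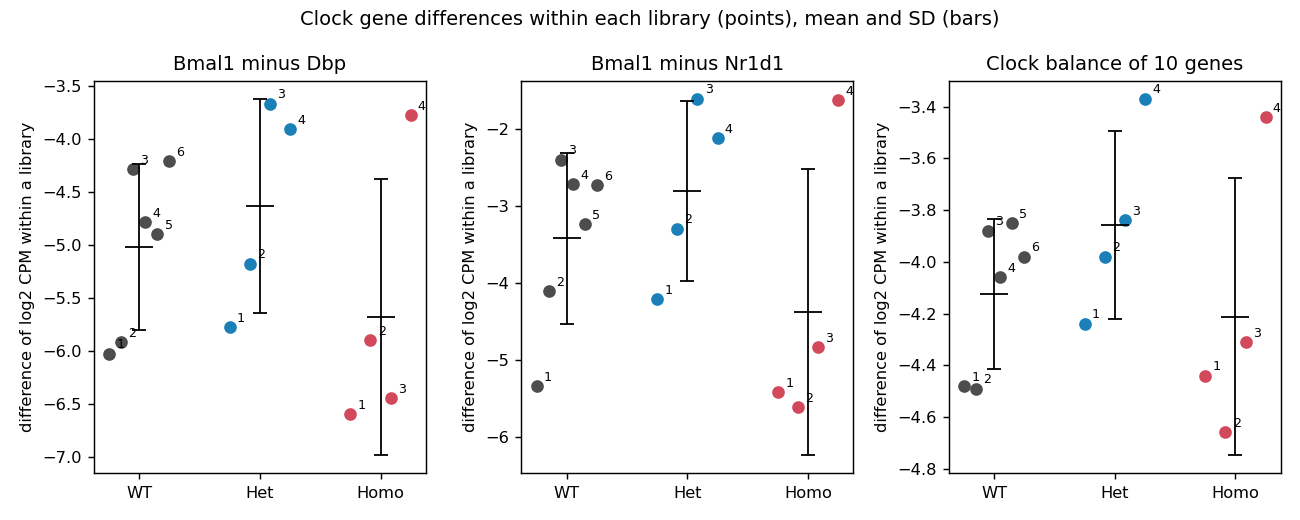
Difference of log2 CPM within a library (vertical axis) for Bmal1 minus Dbp, Bmal1 minus Nr1d1 and the balance of 10 genes, 1 numbered point per WT, Het or Homo liver, with the group mean (long bar) and SD. In the Bmal1 minus Dbp panel Homo 1, 2 and 3 lie between -6.60 and -5.90 and Homo 4 at -3.78, among the highest livers.

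Across the 14 livers, with the genotype means removed, the 9 genes fell into opposite sides, which were drawn after their correlations were seen. Bmal1, Clock, Cry1, Per1 and Per2 were on one side and Nr1d1, Nr1d2, Dbp and Tef on the other. All 16 pairs within a side had a positive Pearson r of log2 CPM (0.29 to 0.90), and all 20 pairs across had a negative one (-0.22 to -0.87). Nr1d1 and Dbp were the closest pair (r = 0.90), followed by Nr1d1 and Nr1d2 (0.85). The most opposed pairs were Clock with Tef and Per2 with Nr1d2 (both -0.87), then Cry1 with Nr1d1 and Per2 with Nr1d1 (both -0.84). Bmal1 and Nr1d1, which lie at the ends of the RORE arm of the loop, had r = -0.54, and Bmal1 and Dbp had -0.69. Per1 and Per2 share the E-box arm with Nr1d1 and Dbp but went with Clock and Cry1 here: Per2 had 0.51 with Clock and -0.72 with Dbp. Of the 36 pairs, 30 had the same sign in the 6 WT livers as in the 8 Het and Homo livers. These values are a description over libraries that share 1 scaling, with no test, and pairs are not independent of each other.

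Single livers weighed on several Bmal1 pairs. Without Homo 4, r between Bmal1 and Nr1d1 was -0.27, between Bmal1 and Per2 -0.04 and between Bmal1 and Cry1 0.00. Without Homo 2 the same pairs had -0.80, 0.71 and 0.49. Homo 4 also stood apart as a library, with the smallest total count (18573739) and the fewest genes detected (22441). Its second principal component was 34.1, where the next was 17.3, and its median r with the other libraries was 0.9659. The part of these properties in its clock gene values was not tested. Bmal1 with Clock moved less, between 0.47 and 0.68 whichever liver was left out. Some Dbp pairs were steady too: Dbp with Nr1d1 stayed between 0.84 and 0.93 and Dbp with Clock between -0.86 and -0.75. Others moved more, with Dbp and Cry1 between -0.88 and -0.59 and Dbp and Bmal1 between -0.83 and -0.51. Other quantities moved with Dbp as well. Over the 14 livers, r with Dbp was 0.71 for the TMM factor, -0.73 for the summed endothelial markers, 0.15 for the log2 total count, 0.30 for the mitochondrial share and -0.30 for the summed hepatocyte markers. All 5 endothelial markers (Stab2, Clec4g, Lyve1, Pecam1 and Kdr) were measured above 0, and their sum ran from 208 to 233 CPM in WT, 219 to 253 in Het and 218 to 260 in Homo. Their part in the clock pattern was not tested. In the GENCODE M21 annotation, Nr1d1 overlaps exons of Thra by 263 bases and Dbp overlaps those of Sphk2 by 539 bases, both on the opposite strand. Whether counting used strand is not given in the sources used here, so reads in the overlaps may be shared. Thra ran from 6.54 to 9.33 CPM (1.43-fold) beside the 8.91-fold range of Nr1d1, and Sphk2 from 19.4 to 29.6 CPM (1.52-fold). With Dbp, r was 0.65 for Thra and 0.49 for Sphk2. The part of shared reads in these values was not tested.

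**Figure D4:**
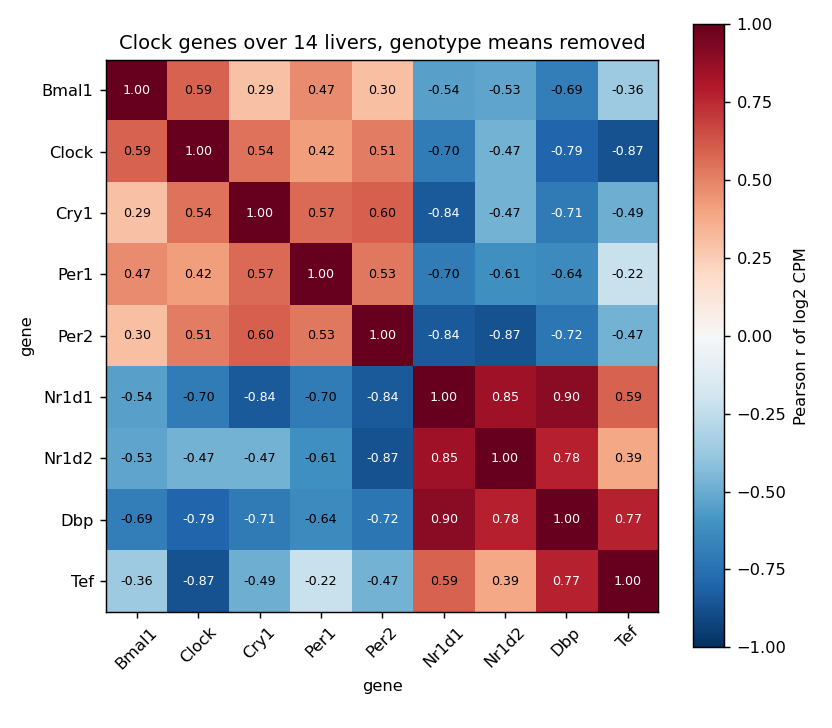
Pearson r of log2 CPM between the 9 tested clock genes over 14 livers with genotype means removed (colour scale from -1 to 1, value in each cell). The red blocks hold Bmal1, Clock, Cry1, Per1 and Per2 (upper left) and Nr1d1, Nr1d2, Dbp and Tef (lower right), and all 20 pairs between the blocks are blue, from -0.22 to -0.87.

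The titles number the livers from 1 to 14, with genotypes interleaved, and the labels do not say what the number stands for. It was examined after Dbp was seen to follow it. Dbp was at 121, 99.8, 134, 99.9 and 112 CPM in livers 1 to 5. It was at 73.8, 67.5, 86.1 and 105 CPM in livers 6 to 9, and at 74.4, 60.2, 67.8, 57.3 and 55.3 CPM in livers 10 to 14. Livers 1 to 5 were all above livers 10 to 14, and each of these sets held all 3 genotypes. Over 14 livers the number and log2 CPM of Dbp had r = -0.84 and rho = -0.81, and r = -0.77 without the 2 livers farthest from the median number. In the 6 WT livers alone r was -0.92. Since the number was taken up for Dbp, these values are a description, with no test.

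Members of the opposite sides had slopes of opposite sign. Clock had r = 0.86 with the number, Bmal1 0.69, Per2 0.63, Per1 0.54 and Cry1 0.49, while Nr1d1 had -0.78 and Nr1d2 and Tef had -0.67 each. In an edgeR quasi-likelihood fit with genotype and number, none of the 16201 genes passed the threshold (0% called), and so neither did any clock gene. At an unadjusted p under 0.05 there were 1820 genes (11.2% of those tested), the 9 clock genes among them. The number was taken up because Dbp followed it, and the other members move with or against Dbp. The slope signs, p-values and calls of the clock genes are therefore no independent test. Dbp had a slope of -0.08 log2 per step (SE 0.0145, adjusted p = 0.0796), or a fitted fold of 0.471 over the 13 steps. Clock had 0.04 (SE 0.00829, adjusted p = 0.0907; 1.48-fold), Nr1d1 -0.17 (SE 0.0325, adjusted p = 0.104; 0.224-fold) and Bmal1 0.11 (SE 0.0301, adjusted p = 0.186; 2.67-fold). The threshold was sensitive to the tool: DESeq2 called 242 genes and 4 members (Dbp, Clock, Nr1d1 and Bmal1), edgeR without the count filter 79 genes and 3 members (Dbp, Clock and Nr1d1), and edgeR scaled by library total 21 genes and Dbp alone among the members. Leaving out Het 2 gave 30 genes, with Dbp and Clock, leaving out Homo 1 gave 8 with Dbp, and leaving out Homo 4 gave 1 and no member.

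The number also moved with the TMM factor (r = -0.70), the number of genes detected (-0.44), the total count (-0.24) and the mitochondrial share (-0.28), and their part in the slopes was not tested. With the number removed along with genotype, r was nearer to 0 in 34 of 36 pairs, and 26 of the 36 kept their sign. The number was taken up for Dbp and moves with each member in the direction of its side. Most pairs were thus set to move towards 0, and this count is no independent test. Bmal1 with Dbp had -0.21 and Clock with Dbp -0.23, while Bmal1 with Clock turned from 0.59 to -0.08. Other pairs kept a larger r, with 0.70 for Nr1d1 and Dbp, -0.80 for Cry1 and Nr1d1, -0.79 for Clock and Tef and -0.75 for Per2 and Nr1d2. With the number as a covariate, still 0 of the 9 members were called in each genotype comparison, and the log2 fold change of Nr1d1 in Homo against Het was 0.67 in place of 1.14.

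**Figure D5:**
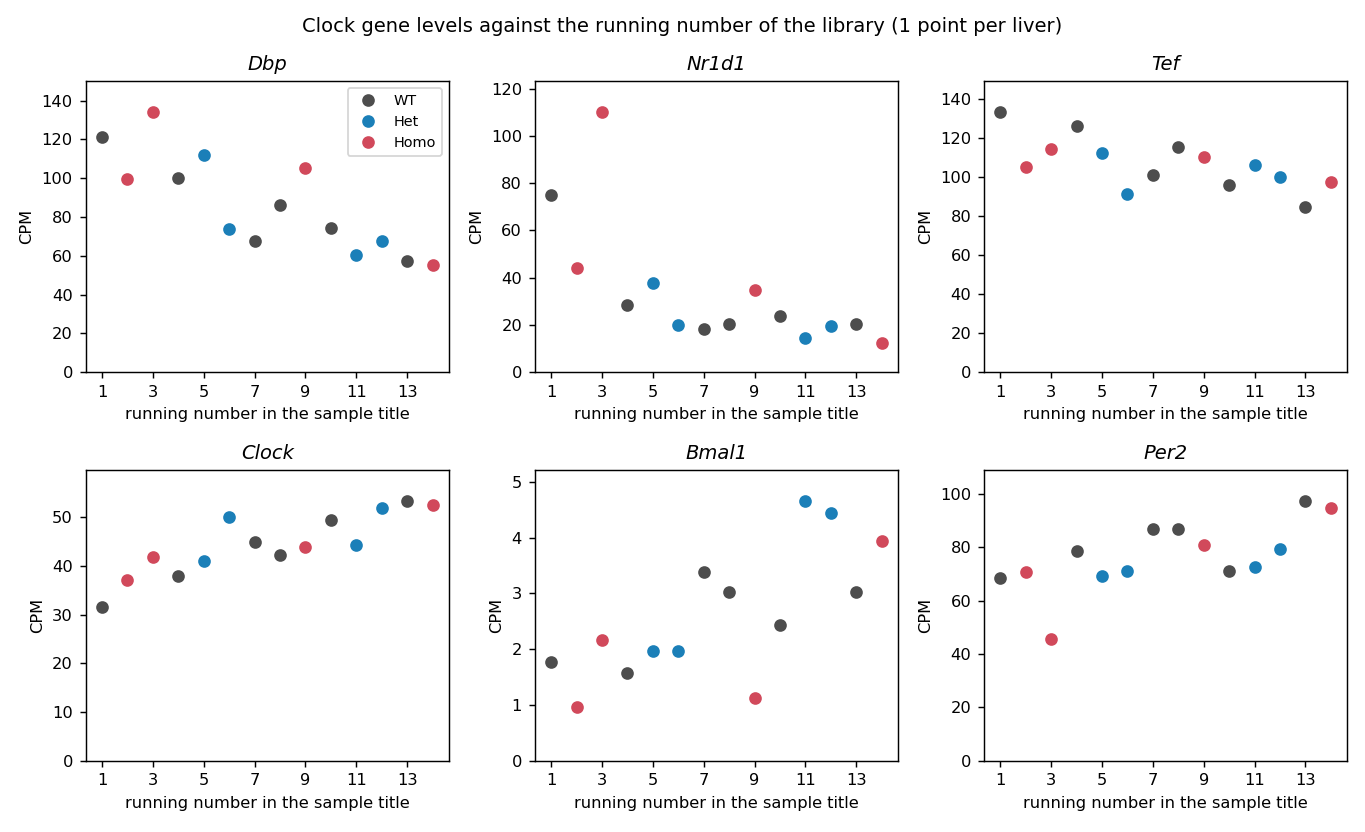
CPM (vertical axis, from 0) of Dbp, Nr1d1, Tef, Clock, Bmal1 and Per2 against the running number in the sample title (horizontal axis, 1 to 14), 1 point per liver, coloured by genotype. Dbp lies between 99.8 and 134 CPM in livers 1 to 5 and between 55.3 and 74.4 CPM in livers 10 to 14, while Clock is lowest in liver 1, at 31.5 CPM.

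Of 16 further clock genes, 15 were tested (Rorb, with at most 3 counts in a library, was not), and none was called in any of the 3 genotype comparisons by edgeR or DESeq2. At an unadjusted p under 0.05 there was 1 in Homo against WT, 0 in Het against WT, and 2 between Homo and Het, beside 4.73%, 4.67% and 5.1% of all genes. Of the 15, 2 had r above 0.6 with Dbp and 1 below -0.6, beside 753 above and 789 below of 13092 genes with at least 1 CPM. In Homo against WT, 10 were above WT and 5 below, with a median log2 fold change of 0.02 beside 0.00 over all genes. Smallest among their unadjusted p-values was 0.0218, for Bhlhe40 in Homo against Het (1.4-fold, edgeR adjusted p = 0.93), a repressor that competes at E-boxes. Per3, the third period gene, ran from 36.6 to 60.5 CPM and had r = 0.71 with Dbp, -0.48 with Per1 and -0.43 with Per2. Nfil3, the repressor that competes with DBP at the D-box, ran from 5.1 to 16.9 CPM, with r = -0.51. Ciart, a repressor in the loop, and Usp2, a deubiquitinase, were both highest in Homo 4, at 25.4 and 84.5 CPM. Per3, Nfil3, Ciart and Usp2 were named for their r with Bmal1, so these values are no separate result.

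All 20 liver outputs of the clock on the list were tested and none was called by edgeR or DESeq2, with 1, 2 and 1 of 20 at an unadjusted p under 0.05 in the same 3 comparisons, near the shares of all genes just given. In Homo against WT, 11 were above WT and 9 below, with a median log2 fold change of 0.02. Of the 20, 9 had r below -0.6 with Dbp over the 14 livers and none above 0.6. Of 13092 genes with at least 1 CPM, 789 were below -0.6 and 753 above 0.6 (11.8% in either direction). As this list was chosen with earlier results of these data known, the 9 are a description and no independent test. Lpin1, a phosphatidate phosphatase and coactivator, ran from 247 CPM in Het 1 to 868 CPM in WT 6 (r with Dbp -0.88, with Bmal1 0.61). Por, the reductase that feeds electrons to the P450 enzymes, ran from 246 to 559 CPM (-0.85 and 0.57). Cdkn1a, the cell cycle inhibitor p21, ran from 0.543 CPM in Het 1 to 12.2 CPM in Homo 4 (22.5-fold), with r = -0.82 with Dbp. Lonrf3 ran from 1.96 to 5.94 CPM (-0.80), and Gys2, the liver glycogen synthase, from 156 to 275 CPM (-0.35). The outputs named here were picked for their r with Bmal1, which itself ran against Dbp. Their negative r with Dbp is thus no separate result, and 4 of the 20 had a positive one.

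Genes that answer to glucocorticoids, feeding and temperature can reset or follow the clock, and 20 of 21 on the list were tested, since G6pc1 was not matched under that symbol. None was called between genotypes by edgeR or DESeq2, with 4, 1 and 1 of 20 at an unadjusted p under 0.05. The 4 in Homo against WT, beside 4.73% of all genes, were the heat shock genes Hspa1a, Hspa1b, Hsp90aa1 and Hsph1, with log2 fold changes of -0.91, -0.605, -0.54 and -0.49 (edgeR, adjusted p = 0.998 each). In Homo against WT, 8 were above WT and 12 below, with a median log2 fold change of -0.05. Of the 20, 10 had r below -0.6 with Dbp and none above 0.6, beside 789 below and 753 above of the 13092 genes. The list was chosen with earlier results of these data known, so the 10 are a description and no independent test. Fkbp5, a glucocorticoid-induced chaperone partner, ran from 65.4 CPM in Homo 2 to 184 CPM in Homo 4 and had r = -0.89 with Dbp. Tat, a tyrosine-degrading enzyme induced by glucocorticoids and fasting, ran from 320 CPM in Homo 1 to 2480 CPM in Homo 4 (-0.69). Sgk1 (6.8 to 19.8 CPM, r = -0.75), Tsc22d3 (36.9 to 214 CPM, -0.65) and Angptl4, a lipoprotein lipase inhibitor that rises in fasting (20.5 to 82.1 CPM, -0.61), had their highest value in Homo 4 too. Hspa1a, the inducible heat shock chaperone, ran from 0.877 to 6.38 CPM (-0.69). The genes from Fkbp5 to Hspa1a were named for their r with Bmal1, which itself ran against Dbp and was high in Homo 4. Their negative r with Dbp and high values in Homo 4 are thus no separate result. Of the 20, 3 had a positive r with Dbp, among them Cirbp at 0.60 and Txnip at 0.54. In the fit with genotype and number, 13 of these 20 genes had an unadjusted p under 0.05, beside 11.2% of all genes, and none was called. Their median slope was 0.06 log2 per step beside 0.00 over all genes. Many of them move against Dbp, for which the number was taken up, so this count is no independent test.

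The genes most like Bmal1 across the 14 livers, genotype means removed, were sought among 13092 genes with at least 1 CPM. Genes on the lists and names of gene models, clones or pseudogenes were left out of this ranking. The highest r belonged to Zdhhc5, a palmitoyltransferase (0.97, 66.7 to 81.1 CPM), Osbpl11 (0.89), Adamts9 (0.86), Unc5b (0.86), Gpx3 (0.85) and Fbln1 (0.85). Lowest were Axin2, a Wnt target and feedback inhibitor (-0.88, 4.06 to 12.9 CPM), Gbp10 (-0.865), Haus8 (-0.84), Pced1b (-0.84), Mgrn1 (-0.84) and Lsp1 (-0.83). They were picked as extremes of many genes, and 0.29% of all 13092 were past 0.8 in either direction. No clock gene was as close to Bmal1: the nearest member was Dbp at -0.69, then Clock at 0.59.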

How the data were processed

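RNA of 14 mouse livers was sequenced as total RNA; per the labels, RNA extracted with Trizol and RNeasy went into a NuGen Ovation library kit. The deposited values are estimated counts per gene from Salmon after STAR, on build GRCm39, per the submitters' processing notes. Tool versions, annotation release, trimming and strand use were not given in the sources used here. Estimated counts were rounded. Genes were filtered with filterByExpr (minimum count 10, minimum total 15), scaled by TMM and tested in edgeR 4.0.16 (R 4.3.3) by the quasi-likelihood test, with 1 fit of the 3 genotypes over 14 libraries. P-values were adjusted by Benjamini-Hochberg over all genes, with calls made under 0.05. DESeq2 1.42.0 was an alternative. Log2 CPM used a prior count of 2. SEs were derived from the F statistic, and tests were checked on simulated counts.

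Replicates are separate numbered mice. The closest pair of libraries differed by a chi-square of 26.6 per degree of freedom, and 0 pairs were identical. Counting intervals cover counting error only. The members and gene lists were chosen with earlier results of these data known. Named genes were all members, up to 6 per list by their absolute r with Bmal1, and the 6 highest and 6 lowest other genes by r with Bmal1. The last set left out listed genes and names of gene models, clones or pseudogenes. Bhlhe40 and the heat shock genes other than Hspa1a were named after their values were seen. Some genes the rule picked are not reported here. The title number was examined after seeing the data. RefSeq promoters and GENCODE M21 overlaps are on GRCm38, and no coordinate was taken from the counts.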

Additional observations from a re-analysis of the deposited data

Results flagged for a closer look

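Nr1d1 in WT liver 1, at 74.9 CPM, stood far from the other 5 WT livers, of which the next was at 28.4 CPM and the lowest at 18.1 CPM. Its gap to the nearest liver was 0.819 of the group's whole range. It was the only one of 33 sets of values examined to pass this outlier criterion, which chance alone would pass in about 1 of 20. The sets were the tested clock genes, the clock balance and Bmal1 minus Dbp, each within each genotype. The balance and the difference reuse the same genes, so the sets are not independent. WT 1 also had the lowest Clock, at 31.5 CPM, the highest Tef, at 133 CPM, and the title number 1. As a library it stood apart as well, with the lowest median r with the other libraries (0.9602), the highest mitochondrial share (12.5%) and a first principal component of -41.3, where the next was -19.9. Their part in its Nr1d1 value was not tested. Without WT 1 the log2 fold change of Nr1d1 was 1.18 in Homo against WT and 0.04 in Het against WT, in place of 0.70 and -0.44, and no clock gene was called.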

How the results depend on the processing

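No clock gene was called between genotypes under any alternative run: other scaling, no count filter, DESeq2, only the groups compared, the replicate block, the title number as a covariate, or leaving out any library. With the clock balance as a covariate the 3 counts over all genes were 41, 10 and 5. Counts over all genes did move under other settings. Main counts were 36 (Homo against WT), 9 (Het against WT), 5 (Homo against Het) and 27 (any difference). DESeq2 gave 61, 32, 16 and 65. Without the filter, Het against WT gave 23 and any difference 54. The replicate block gave 19 in Homo against WT, 2 in Homo against Het and 14 in the joint test; replicate numbers did not pair the livers (r of same-numbered deviations -0.137 to 0.227). Fitting only the groups compared gave 2 in Homo against Het. Leaving out 1 library gave 23 (without Homo 1) to 40, 8 to 11, 4 to 7 and 19 to 29. The cause was not tested.

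Small fold changes crossed 0. With library total alone, Tef in Homo against WT was 0.00 and Per2 in Homo against Het 0.06. Per2 in Homo against Het was 0.00 without the filter or with only those groups, and Nr1d2 in Het against WT was 0.00 with the replicate block. With the title number as a covariate, Nr1d2 and Dbp in Het against WT were 0.04 and 0.02, and Per2 in Homo against Het 0.04. Leave-one-out ranges in Homo against WT were -0.08 to 0.09 (Clock), -0.02 to 1.18 (Nr1d1), -0.01 to 0.20 (Nr1d2), -0.41 to 0.07 (Per1), -0.31 to 0.01 (Per2) and -0.10 to 0.03 (Tef). In Het against WT they were -0.79 to 0.04 (Nr1d1), -0.04 to 0.05 (Nr1d2), -0.28 to 0.18 (Per1) and -0.33 to 0.02 (Dbp). In Homo against Het they were -0.16 to 0.19 (Cry1), 0.00 to 0.20 (Nr1d2), -0.31 to 0.20 (Per1) and -0.15 to 0.17 (Per2).

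Leave-one-out ranges of r with Dbp were -0.83 to -0.51 (Bmal1), -0.88 to -0.59 (Cry1), 0.84 to 0.93 (Nr1d1), 0.64 to 0.88 (Nr1d2) and -0.79 to -0.59 (Per2). With Bmal1 they were 0.00 to 0.49 (Cry1), -0.80 to -0.27 (Nr1d1), -0.73 to -0.24 (Nr1d2) and -0.04 to 0.71 (Per2). Genes called for a slope with the title number, 0 in the edgeR fit, were 21 with library total alone (1 clock gene), 79 without the filter (3) and 242 with DESeq2 (4). They were 0 to 30 with a library left out (0 to 2 clock genes). As the number was taken up for Dbp, these counts of clock genes are no independent test. The replicate block gave 0. Replicate numbers rise with the title number within each genotype, so that block takes up most of a slope and cannot show its absence. Npas2 and Bmal1 are limited by depth.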
